A study of Mus musculus with 6 samples.

Results

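The small leucine-rich proteoglycans described here are 10 genes: *Dcn*, *Bgn*, *Lum*, *Fmod*, *Ogn*, *Prelp*, *Aspn*, *Omd*, *Kera* and *Chad*. The rule lists them by name and uses no measured value, although the family was picked with earlier results of these data known, and all 10 were found among the 18089 genes of the deposited table and among the 14395 genes that passed the filter on low counts. RNA was sequenced from 3 muscle samples of WT mice and 3 of *Gpr174*-/Y mice, taken 7 days after hindlimb ischemia (HLI). The mice were males of the C57BL/6 strain aged 8 to 10 weeks. The labels do not say whether the samples of a group come from separate mice. HLI was made by ligating the femoral artery, and the methods name the gastrocnemius as the ischemic muscle studied. The *Gpr174*-/Y mice lack the X-linked receptor gene *Gpr174* in every cell, so no cell type is singled out by the model, and the controls were littermates. Both groups were ischemic, so the libraries compare genotypes within ischemic muscle.

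Small leucine-rich proteoglycans are secreted proteins of the extracellular matrix whose curved core of leucine-rich repeats binds collagen fibrils and sets how the fibrils form, grow in width and space themselves. Some carry chondroitin or dermatan sulfate chains (decorin, biglycan), some keratan sulfate (lumican, fibromodulin, keratocan, osteomodulin), and some little or no sugar chain of this kind (asporin, chondroadherin). In muscle they are made mainly by the fibroblasts of the connective tissue and by tendon cells, and several of them bind growth factors of the TGF-β family. In a whole muscle, fewer cells of a type and less RNA per cell cannot be told apart.

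Libraries held 18417111 to 18695034 estimated counts (WT) and 19173066 to 19394504 (*Gpr174*-/Y). The smallest number taken as detectable, 3 counts, equalled 0.155 to 0.163 CPM, that is counts scaled to library size. The disrupted gene itself, *Gpr174*, had 8, 2 and 5 counts in the WT libraries against 1, 0 and 0 in those of *Gpr174*-/Y mice, so all 3 *Gpr174*-/Y libraries were below 3 counts. In WT, replicate 2 had the middle value of the 3 for 79.8% of 7650 genes averaging 20 CPM or more, and in *Gpr174*-/Y for 71.0%, where 33.3% would hold if each replicate were equally often in the middle. Whether the libraries of a group are independent was not tested, and the p-values given here take them as independent. The same held for 10 of the 10 proteoglycans in WT and 9 in *Gpr174*-/Y, and results are therefore also given without replicate 2 of each group. The 12 mature muscle fibre markers, from *Myh1* to *Ckm*, were all detected, as the tissue label requires.

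The 10 genes did not move together. *Bgn*, *Ogn* and *Aspn* rose in the *Gpr174*-/Y muscles by 2.06-, 1.73- and 1.86-fold, while *Kera* and *Chad* were 3.75- and 3.93-fold lower and *Dcn*, *Lum* and *Fmod* 1.48-, 1.75- and 1.38-fold lower. In all, 9 of the 10 genes passed an adjusted p of 0.05 (edgeR's quasi-likelihood test with Benjamini-Hochberg adjustment), against 54.6% of all tested genes. Of these 9, 3 were higher and 6 lower, where 27.0% and 27.6% of all tested genes were called in each direction, and the sixth lower gene, *Prelp*, changed direction with another scaling. The median log2 fold change was -0.39 over the 10 genes and 0.00 over all tested genes. An absolute log2 fold change above 1 was also reached by 3 of them (*Bgn*, *Kera* and *Chad*), against 8.29% of all genes. *Bgn* was 1 of the 3.45% that did so upwards, and *Kera* and *Chad* belonged to the 4.84% that did so downwards. In CPM scaled by TMM, no overlap between the groups was seen in 9 of the 10, all but *Omd*, and in 65.6% of all genes. In TPM, the length-scaled measure used below, *Fmod* overlapped too, and *Prelp* was higher in every *Gpr174*-/Y library.

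Scaling bears on these directions. The scaling used was TMM, and with total counts in its place the median of all tested genes moved from 0.00 to 0.28 on the log2 scale. The share of called genes that were higher in *Gpr174*-/Y then moved from 49.5% (3891 higher, 3972 lower) to 78.4% (7303 higher, 2010 lower). Among the proteoglycans the split went from 3 higher and 6 lower to 3 higher and 5 lower, with *Prelp* the gene that left. With replicates 1 and 3 alone, no gene of any kind was called by edgeR (lowest adjusted p = 0.0542), while 5026 genes, 7 of them proteoglycans, had an unadjusted p under 0.05. The log2 fold changes of the 10 genes in that fit kept their sign, with adjusted p from 0.0542 to 0.525.

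**Figure D1:**
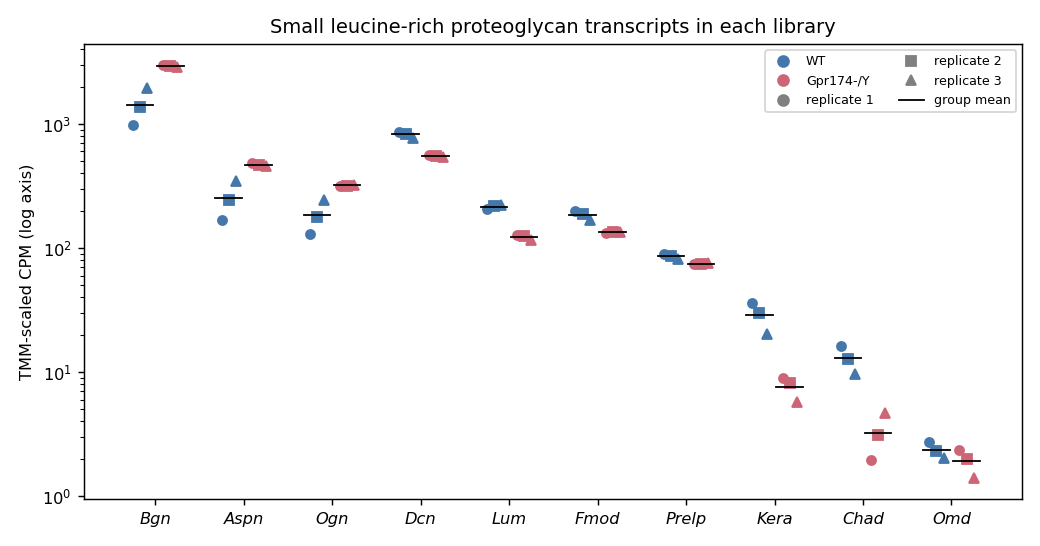
Level of each of the 10 proteoglycans in every library, in TMM-scaled CPM on a logarithmic axis, with 1 point per library. The *Gpr174*-/Y points lie above the WT points for *Bgn*, *Ogn* and *Aspn*, below them for *Dcn*, *Lum*, *Fmod*, *Prelp*, *Kera* and *Chad*, and among them for *Omd*; with total counts as the scaling *Prelp* is slightly higher in *Gpr174*-/Y.

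The stretch just before the start of a gene holds much of what sets where and how often transcription starts. It is shown for the 3 genes that rose and for *Chad*, among the genes that fell, so that their base composition and motifs can be compared. Each line holds the 250 bases before the start site of RefSeq on GRCm38.p6, in the direction of the gene. Capitals mark the TATA box (TATAAA) and the CCAAT box (CCAAT), on either strand.
*Bgn*, chrX:73483351-73483600, plus strand: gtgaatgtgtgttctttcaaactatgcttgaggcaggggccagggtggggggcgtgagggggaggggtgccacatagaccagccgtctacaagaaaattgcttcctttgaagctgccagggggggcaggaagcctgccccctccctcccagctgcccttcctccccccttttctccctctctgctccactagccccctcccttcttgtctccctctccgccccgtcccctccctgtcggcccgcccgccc
*Aspn*, chr13:49544193-49544442, plus strand: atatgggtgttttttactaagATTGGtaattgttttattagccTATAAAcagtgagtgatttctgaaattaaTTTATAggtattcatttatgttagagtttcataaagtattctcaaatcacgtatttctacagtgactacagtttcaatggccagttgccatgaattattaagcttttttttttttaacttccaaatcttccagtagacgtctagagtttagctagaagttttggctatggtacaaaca
*Ogn*, chr13:49607765-49608014, plus strand: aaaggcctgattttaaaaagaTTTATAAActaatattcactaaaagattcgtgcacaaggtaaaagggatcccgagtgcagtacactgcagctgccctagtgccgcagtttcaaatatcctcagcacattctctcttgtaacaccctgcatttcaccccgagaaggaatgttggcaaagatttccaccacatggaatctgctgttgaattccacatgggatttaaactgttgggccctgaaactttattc
*Chad*, chr11:94564797-94565046, plus strand: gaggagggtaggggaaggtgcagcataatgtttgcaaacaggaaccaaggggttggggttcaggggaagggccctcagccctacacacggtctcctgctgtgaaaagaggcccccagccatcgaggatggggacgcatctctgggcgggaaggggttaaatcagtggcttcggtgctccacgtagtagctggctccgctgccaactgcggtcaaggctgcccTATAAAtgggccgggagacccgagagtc

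The *Bgn* sequence held neither motif and was 64.4% G and C, where the median of 32851 promoters was 52.4%. *Aspn* was at the other end, with 30.0% G and C, and *Ogn* and *Chad* had 42.0% and 60.4%. TATAAA occurred in 12.4% of the 32851 promoters. *Chad* had it 28 to 23 bases before the start, *Ogn* once on each strand in overlapping letters between 229 and 222 bases before it, and *Aspn* on both strands between 207 and 173 bases before it. CCAAT, found in 33.8% of promoters, stood in those of *Aspn*, *Prelp* and *Kera*. The letters TGANTCA (AP-1, in 6.75% of promoters) and GCGNGGGCG (EGR, in 4.70%) were in none of the 8 promoters of the family that could be matched. The genes that rose thus shared none of the 4 motifs among all 3 of them. *Dcn* and *Lum* had no entry. A match of letters is a description and not a binding site.

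*Bgn* (Entrez 12111, chromosome X) encodes biglycan, which carries chondroitin or dermatan sulfate chains and, when released from the matrix, is a ligand of Toll-like receptors. Its level was 980.0, 1379 and 1931 CPM in WT replicates 1, 2 and 3, and 3000.1, 2941 and 2878 CPM in *Gpr174*-/Y replicates 1, 2 and 3. The groups did not overlap, with WT replicate 1 lowest and *Gpr174*-/Y replicate 1 highest. The log2 fold change was 1.04 (SE 0.23, adjusted p = 0.00914). The WT libraries were spread over a 1.97-fold range and the *Gpr174*-/Y libraries over a 1.04-fold range, so most of the spread lay among the WT libraries. The value ran from 0.84 to 1.33 on the log2 scale as each library was left out, and the call was kept each time.

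*Aspn* (Entrez 66695, chromosome 13) encodes asporin, which lacks such chains and can hold TGF-β away from its receptor. It measured 168, 244 and 346 CPM in WT replicates 1, 2 and 3 and 483, 469.8 and 457 CPM in the *Gpr174*-/Y replicates. The groups did not overlap, and the WT libraries again covered a wide range (2.07-fold, against 1.06-fold in *Gpr174*-/Y). The log2 fold change was 0.90 (SE 0.24, adjusted p = 0.0175). The call was lost without WT replicate 2 (adjusted p = 0.0621) and without *Gpr174*-/Y replicate 1, 2 or 3 (0.0552, 0.0513 and 0.0504), with the log2 fold change between 0.88 and 0.92 in these fits.

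*Ogn* (Entrez 18295, chromosome 13), the gene of osteoglycin or mimecan, a small member found in many connective tissues, showed 131, 178 and 243 CPM in the WT libraries. The *Gpr174*-/Y libraries had 317, 316 and 324 CPM, all above the WT range. Its log2 fold change was 0.79 (SE 0.20, adjusted p = 0.0154). Without WT replicate 2 the adjusted p was 0.0569, and without *Gpr174*-/Y replicate 3 it was 0.0512. All 3 genes that rose thus had their lowest value in WT replicate 1 and the highest WT value in replicate 3.

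*Dcn* (Entrez 13179, chromosome 10) encodes decorin, which carries a chondroitin or dermatan sulfate chain, coats collagen fibrils and binds TGF-β and myostatin. It stood at 863, 830.2 and 772 CPM in WT and at 562, 555 and 545 CPM in *Gpr174*-/Y. Every *Gpr174*-/Y library was below every WT library, and the spread was small in both groups (1.12- and 1.03-fold). The log2 fold change was -0.57 (SE 0.07, adjusted p = 0.00147), and -0.29 with total counts (adjusted p = 0.00642). The estimated counts themselves fell from between 13732 and 13949 to between 11723 and 11779. *Dcn* and *Bgn*, the chondroitin or dermatan sulfate pair of the family, therefore went in opposite directions.

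*Lum* (Entrez 17022, chromosome 10) encodes lumican, a keratan sulfate proteoglycan that limits the width of collagen fibrils. Its values were 207, 216 and 222 CPM in WT and 128, 124 and 116 CPM in *Gpr174*-/Y. The groups were far apart for their spread (1.07- and 1.10-fold). With a log2 fold change of -0.81 (SE 0.06), *Lum* had the lowest adjusted p of the 10 genes (0.00053), and with total counts the change was -0.54 (adjusted p = 0.00132). It was also the gene of the family closest to the threshold when only replicates 1 and 3 were used (adjusted p = 0.0542).

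*Fmod* (Entrez 14264, chromosome 1), the gene of fibromodulin, a keratan sulfate member abundant in tendon that binds collagen near the lumican site, had 199, 186 and 169 CPM in WT. In *Gpr174*-/Y it had 133, 133 and 135 CPM. On this TMM scale no *Gpr174*-/Y library reached the WT range, and the log2 fold change was -0.47 (SE 0.07, adjusted p = 0.00234). In TPM the groups overlapped, with 98.8 to 105.8 in WT and 94.0 to 101.6 in *Gpr174*-/Y. With total counts it was -0.19 (adjusted p = 0.0218).

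*Prelp* (Entrez 116847, chromosome 1) encodes prolargin, which anchors the basement membrane proteoglycan perlecan to collagen. It read 90.0, 86.1 and 81.3 CPM in WT and 73.8, 74.0 and 76.1 CPM in *Gpr174*-/Y, so the groups did not overlap. Its log2 fold change of -0.20 (SE 0.05, adjusted p = 0.0176) turned to 0.08 with total counts (adjusted p = 0.224) and to 0.07 on the FPKM scale (adjusted p = 0.214). The adjusted p was 0.0520 with a replicate block, 0.0817 without WT replicate 2, 0.0605 without *Gpr174*-/Y replicate 1 and 0.0793 without *Gpr174*-/Y replicate 2. No direction is drawn for *Prelp* from these data. In the GENCODE annotation of GRCm38, 350 of its 3615 exon bases are shared with *Gm15851* on the opposite strand. Whether counting used strand is not given in the sources used here.

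*Kera* (Entrez 16545, chromosome 10) encodes keratocan, known best as the keratan sulfate proteoglycan of the cornea and also present in tendon. Its counts were 575, 500 and 363 in WT and 188, 174 and 123 in *Gpr174*-/Y, that is 35.8, 29.8 and 20.4 CPM against 8.98, 8.19 and 5.72 CPM. The lowest WT library still had 363 counts, well above the highest *Gpr174*-/Y library with 188. The log2 fold change was -1.91 (SE 0.24, adjusted p = 0.00148). In both groups replicate 1 was the highest and replicate 3 the lowest.

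*Chad* (Entrez 12643, chromosome 11) encodes chondroadherin, a cell-binding member of cartilage and tendon that lacks such chains. It had 260, 216 and 171 counts in WT (16.2, 12.9 and 9.61 CPM) and 41, 66 and 101 counts in *Gpr174*-/Y (1.96, 3.11 and 4.70 CPM). The groups did not overlap, and the highest *Gpr174*-/Y library, replicate 3, and the lowest WT library, also replicate 3, were the closest. Its log2 fold change of -1.98 (SE 0.31, adjusted p = 0.00273) differed from that of *Kera* by less than either SE, and *Kera* was the lower of them without *Gpr174*-/Y replicate 1 (-2.04 against -1.72) and with limma on log2(FPKM + 1) (-1.43 against -1.37). As each library was left out the value of *Chad* ran from -2.34 to -1.72. *Chad* lies within *Acsf2*, a gene on the opposite strand, with 0 shared exon bases, and *Acsf2* itself had a log2 fold change of 0.12 (adjusted p = 0.318).

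*Omd* (Entrez 27047, chromosome 13) encodes osteomodulin, a keratan sulfate member best known from bone. It was the scarcest, with 44, 39 and 36 counts in WT and 49, 42 and 30 counts in *Gpr174*-/Y (2.74, 2.32 and 2.02 against 2.34, 1.98 and 1.40 CPM). The groups overlapped, and the log2 fold change was -0.31 (SE 0.22, adjusted p = 0.278). It was -0.12 without *Gpr174*-/Y replicate 3, -0.18 without WT replicate 1, -0.48 without *Gpr174*-/Y replicate 1 and -0.03 with total counts, with an adjusted p of at least 0.136 in each. *Omd* is therefore reported without a direction.

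**Figure D2:**
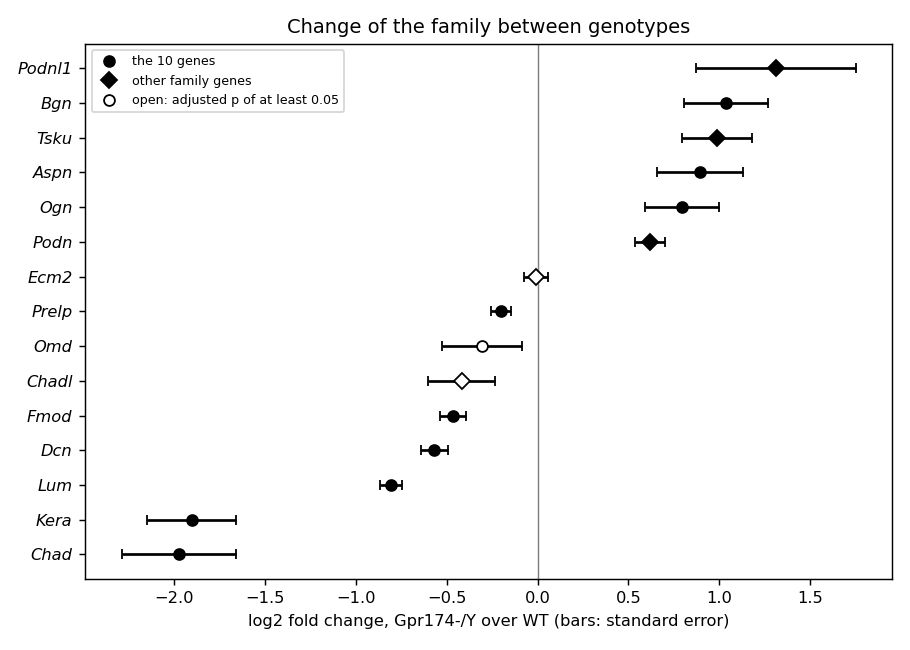
Log2 fold change of *Gpr174*-/Y over WT from edgeR for the 10 proteoglycans and the other tested genes of the family, with bars of 1 standard error. *Bgn*, *Aspn* and *Ogn* stand between 0.79 and 1.04, and *Chad* and *Kera* near -1.98 and -1.91.

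Of 8 further genes of the wider family, 5 passed the filter, of which 3 rose and 0 fell. *Tsku*, encoding the secreted signalling modulator tsukushi, had 214, 329 and 442 counts in WT and 837, 798 and 801 in *Gpr174*-/Y, a log2 fold change of 0.99 (SE 0.20, adjusted p = 0.0058). *Podn*, encoding podocan, went from 543, 582 and 644 counts to 1004, 1143 and 1272, with a log2 fold change of 0.62 (SE 0.08, adjusted p = 0.00165). Both were higher in every *Gpr174*-/Y library. The related *Podnl1* had 9, 33 and 60 counts in WT and 120, 103 and 93 in *Gpr174*-/Y (log2 fold change 1.31, SE 0.44, adjusted p = 0.0403), and its call was lost with a replicate block (0.0900), without WT replicate 2 (0.115) and without *Gpr174*-/Y replicate 1, 2 or 3 (0.115, 0.0969 and 0.0772). *Ecm2* had a log2 fold change of -0.01 (adjusted p = 0.922), which was 0.26 with total counts (adjusted p = 0.0326), and *Chadl*, the relative of *Chad*, one of -0.42 (adjusted p = 0.095). The latter was -0.52 without WT replicate 3 (adjusted p = 0.0359), -0.22 without WT replicate 1 (0.263) and -0.14 with total counts (0.481). *Epyc*, *Optc* and *Nyx* were at most at 13 counts in any library and were removed by the filter.

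Several of these genes lie side by side. On chromosome 10 the order is *Dcn*, *Lum*, *Kera* and *Epyc*, and the first 3 had log2 fold changes of -0.57, -0.81 and -1.91. On chromosome 1, *Optc*, *Prelp* and *Fmod* are neighbours, with *Prelp* at -0.20 (its direction depending on the scaling) and *Fmod* at -0.47. On chromosome 13 the order is *Ecm2*, *Aspn*, *Omd* and *Ogn*, where *Aspn* and *Ogn* rose while *Omd* between them had -0.31 (adjusted p = 0.278) and *Ecm2* -0.01. This last group is embedded in *Cenpp* on the opposite strand, which had a log2 fold change of 0.30 (adjusted p = 0.112) and shared 7 of the 2354 exon bases of *Aspn* and 0 of those of *Ogn* and *Omd*. The tested neighbours thus had like directions on chromosome 10 and unlike values on chromosome 13.

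Levels between genes were compared in TPM, the authors' measure that takes transcript length into account. In WT muscle *Bgn* (1041 ± 399 TPM, SD, n = 3) and *Dcn* (766 ± 5.99) stood highest with overlapping ranges, and *Dcn* was above *Bgn* in WT replicate 1. *Aspn* (189.6 ± 76.6), *Lum* (181.6 ± 15.5), *Ogn* (124.6 ± 44.4) and *Fmod* (102.5 ± 3.49) followed, each overlapping the next. *Prelp* (41.2 ± 0.07), *Kera* (26.0 ± 5.87), *Chad* (13.4 ± 2.78) and *Omd* (2.08 ± 0.25) came last without overlap.

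In *Gpr174*-/Y muscle the order was *Bgn* (2773 ± 35.8 TPM, SD, n = 3), *Dcn* (676 ± 12.4), *Aspn* (457 ± 2.97), *Ogn* (280.4 ± 13.1), *Lum* (135.5 ± 2.15), *Fmod* (97.5 ± 3.83), *Prelp* (47.1 ± 2.39), *Kera* (9.11 ± 1.69), *Chad* (4.51 ± 2.05) and *Omd* (2.35 ± 0.46). Only *Chad* and *Omd* had overlapping ranges there. *Ogn* stood ahead of *Lum* in *Gpr174*-/Y and behind it, within the spread, in WT.

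As shares of the summed TPM of the 10 genes, *Bgn* made up 33.5, 40.7 and 48.2% in WT replicates 1, 2 and 3 and 62.0, 61.9 and 61.7% in *Gpr174*-/Y. *Dcn* made up 38.3, 31.8 and 25% in WT and 15, 15.1 and 15.1% in *Gpr174*-/Y. The sum itself was 2008, 2421 and 3035 TPM in WT and 4424, 4466 and 4557 TPM in *Gpr174*-/Y, above the WT range in each library. The summed TPM was thus higher and a larger share of it was *Bgn*. Even so, 6 of the 10 genes were called lower on the TMM scale and 5 on that of total counts. TPM has the same total in every library, so the sum also depends on all other transcripts. Against fibrillar collagen counts, compared below, the summed counts of the 10 genes were lower (log2 difference -0.22).

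**Figure D3:**
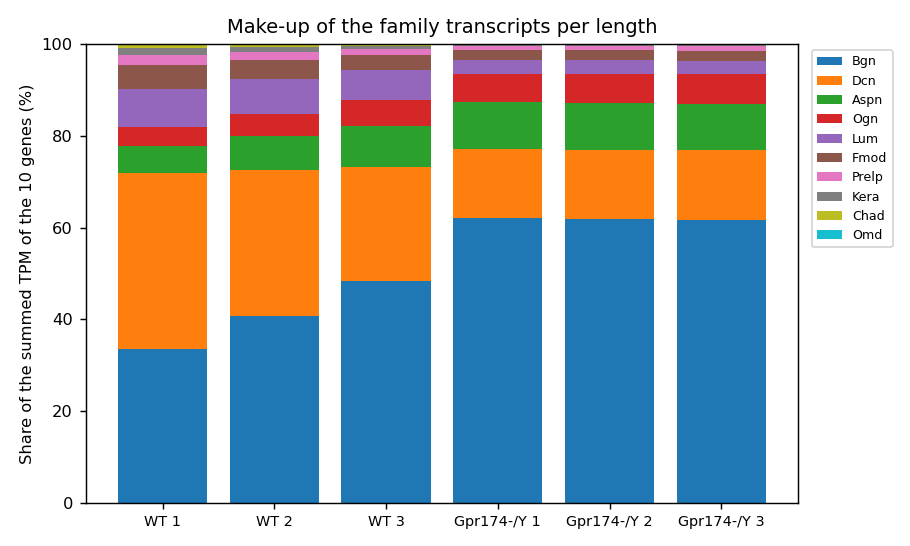
Share of the summed TPM of the 10 proteoglycans taken by each gene, with 1 stacked bar per library from 0 to 100%. *Bgn* takes between 33.5 and 48.2% in the WT libraries and between 61.7 and 62.0% in the *Gpr174*-/Y libraries, and *Dcn* is near 15% in the latter.

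Ratios of counts within a library do not depend on its scaling. The number of *Bgn* counts per *Dcn* count was 1.14, 1.66 and 2.50 in WT and 5.34, 5.30 and 5.28 in *Gpr174*-/Y. Against *Dcn*, the log2 difference between the groups was 1.66 for *Bgn*, 1.53 for *Aspn*, 1.41 for *Ogn*, 0.37 for *Prelp* and 0.10 for *Fmod*, and it was -0.24 for *Lum*, -1.33 for *Kera* and -1.48 for *Chad*. These 8 ratios did not overlap between the groups, each with p = 0.1 in a 2-sided exact permutation test (adjusted p = 0.1125 over 9 ratios), the smallest p that 3 samples against 3 allow. The ratio of *Omd* to *Dcn* overlapped (log2 difference 0.24, p = 0.4, exact permutation test). Because the *Dcn* counts fell, a gene without a change of its own is higher per *Dcn* count. *Fmod* and *Prelp*, both called lower with TMM, were thus higher in these ratios. The share of all tested genes whose ratio to *Dcn* did not overlap was not computed.

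The members were also set against the collagen they bind, as counts per summed count of *Col1a1*, *Col1a2* and *Col3a1*, the main fibrillar collagen genes of muscle connective tissue. These 3 collagen genes rose, with log2 fold changes of 0.87, 0.79 and 0.56 (adjusted p = 0.00916, 0.00588 and 0.0158). All 10 proteoglycans together gave 0.193, 0.189 and 0.185 counts per collagen count in WT and 0.157, 0.162 and 0.171 in *Gpr174*-/Y, a log2 difference of -0.22 with no overlap (exact permutation p = 0.1, the smallest possible). *Dcn* per collagen count was 2.50-fold lower in *Gpr174*-/Y than in WT, *Lum* 2.95-fold, *Kera* 6.27-fold and *Chad* 6.94-fold. *Fmod*, *Prelp* and *Omd* were also lower per collagen count, by 2.32-, 1.94- and 2.12-fold.

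Per collagen count, *Bgn* alone was higher in every *Gpr174*-/Y library than in every WT library (log2 difference 0.34). *Ogn* and *Aspn* overlapped between the groups, with log2 differences of 0.09 (exact permutation p = 0.5) and 0.21 (p = 0.3, exact permutation test). Thus 8 of the 10 ratios to collagen did not overlap, 7 of them lower in *Gpr174*-/Y, each with an exact permutation p of 0.1 (adjusted p = 0.125 over 10 ratios). Because the collagen counts rose, a gene without a change of its own is also lower per collagen count. The share of all tested genes with such a ratio was not computed. *Prelp* and *Omd* are therefore still given no direction.

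**Figure D4:**
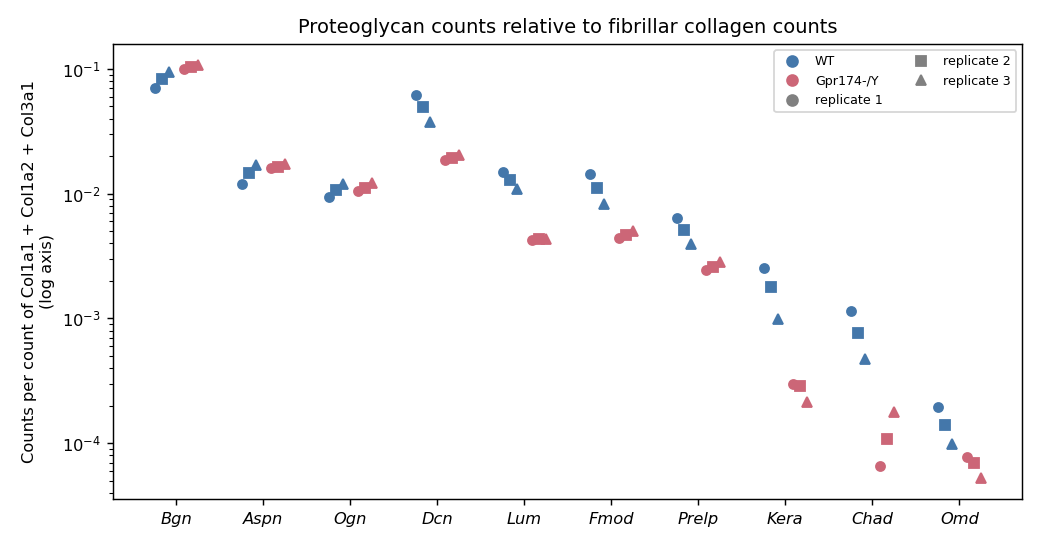
Counts of each proteoglycan per summed count of *Col1a1*, *Col1a2* and *Col3a1*, on a logarithmic axis, with 1 point per library. The *Gpr174*-/Y points are below the WT points for *Dcn*, *Lum*, *Fmod*, *Prelp*, *Omd*, *Kera* and *Chad*, above them for *Bgn*, and overlap them for *Ogn* and *Aspn*.

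The deposited estimates are per RefSeq transcript, which for some members divides the gene. *Dcn* has 2 listed transcripts, and the minor one took 9.56, 9.24 and 10.1% of its estimated counts in WT and 4.85, 4.31 and 3.86% in *Gpr174*-/Y, with no overlap. The minor one of the 2 *Bgn* transcripts took 1.93, 2.0 and 2.86% in WT and 1.28, 1.58 and 1.80% in *Gpr174*-/Y. These shares are estimates from reads that the transcripts largely hold in common, and no test was made. The shares of *Aspn*, *Prelp* and *Kera* transcripts overlapped between the groups, *Lum*, *Fmod*, *Ogn* and *Chad* have 1 listed transcript each, and those of *Omd* rest on under 50 counts per library.

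The enzymes that build the sugar chains were examined as the makers of the finished proteoglycan. Of 7 genes for the linkage sugar that joins chains to the core protein, 4 rose and 0 fell, with a median log2 fold change of 0.41 (7 and 0 with total counts). *Xylt1*, which adds the first sugar, was at 1.37, 2.08 and 2.47 CPM in WT and 5.30, 5.27 and 5.40 CPM in *Gpr174*-/Y (log2 fold change 1.42, SE 0.19, adjusted p = 0.00156). Among 16 makers of chondroitin and dermatan sulfate, 12 rose and 1 fell (median 0.54; 15 and 0 with total counts). They included the 4-O-sulfotransferases *Chst13* (1.74) and *Chst11* (1.13) and the chain-building enzymes *Chsy3* (1.09) and *Csgalnact1* (0.99). The value of *Chst13* rests on few counts, 6, 13 and 17 in WT and 42, 47 and 63 in *Gpr174*-/Y. *Chst11* ran from 6.29 to 9.78 CPM in WT and from 16.7 to 18.7 CPM in *Gpr174*-/Y.

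For keratan sulfate, the chain of *Lum*, *Fmod* and *Kera*, 8 of 9 listed makers were found and tested, of which 4 rose and 1 fell (median 0.37; 6 and 0 with total counts). *B3gnt7*, which lengthens the chain, and *Chst2*, a sulfotransferase, had log2 fold changes of 1.99 and 1.07, and *B4galt4* one of -0.41. Neither of the 2 tyrosine sulfotransferases, *Tpst1* and *Tpst2*, was called, and 1 was without *Gpr174*-/Y replicate 1 or with total counts. The linkage sugar, chondroitin and dermatan sulfate, and keratan sulfate groups thus held more genes called higher than lower. This was so also where the core proteins that carry their chains fell. Of all tested genes, 27.0% were called higher and 27.6% lower with TMM, and with total counts 78.4% of called genes were higher.

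Of 4 tested proteinases and enhancers that trim propeptides, *Bmp1* (0.48, adjusted p = 0.0107) and *Pcolce* (0.28, adjusted p = 0.0323) rose and 0 fell, and 1 call was left without WT replicate 1 or 2 or without *Gpr174*-/Y replicate 1 or 2. Of 10 proteinases known to cut small leucine-rich proteoglycans, 3 rose, namely *Mmp9* (2.66), *Adamts4* (0.78) and *Mmp14* (0.47), and 3 fell, among them *Htra1* (-0.43), with 4 and 0 when total counts were used. Here 3 of the 6 calls were left without WT replicate 2 and without *Gpr174*-/Y replicate 2 or 3.

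On the side of the collagens, 9 of 11 fibrillar and fibril-associated genes rose and 2 fell (median 0.66), led by *Col12a1* (1.42) and *Col5a1* (1.13). Of 8 genes of collagen cross-linking, 7 rose and 0 fell (median 0.85), with *Lox*, the lysyl oxidase, at 101, 162 and 248 CPM in WT and 533, 529 and 523 CPM in *Gpr174*-/Y. *Dcn*, *Lum* and *Fmod*, which cover the same fibrils, moved against these groups.

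Of 8 growth factors bound by the family, 4 rose, among them *Ccn4* (1.84) and *Tgfb3* (0.62), and 2 fell, *Mstn* (-1.38), which encodes myostatin, and *Bmp4* (-0.78). Of 12 reported receptors 7 rose, including *Cd44* (1.12), *Lrp1* (0.79) and *Tlr2* (0.52), and 3 fell, including *Kdr* (-0.91), with 9 and 1 under total counts. Among 8 tested larger or other extracellular proteoglycans, 3 rose (*Vcan* 0.96, *Esm1* 0.77 and *Srgn* 0.29) and 1 fell (*Agrn*, -0.41, adjusted p = 0.0495), with 3 and 0 under total counts. That count fell from 4 called genes to 1 without WT replicate 2 or without *Gpr174*-/Y replicate 2 and to 2 without *Gpr174*-/Y replicate 1. The share of all tested genes called in each direction, 27.0% higher and 27.6% lower, stands behind each of these counts made with TMM. Behind those made with total counts stand 7303 genes called higher and 2010 called lower of 14395 tested.

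**Figure D5:**
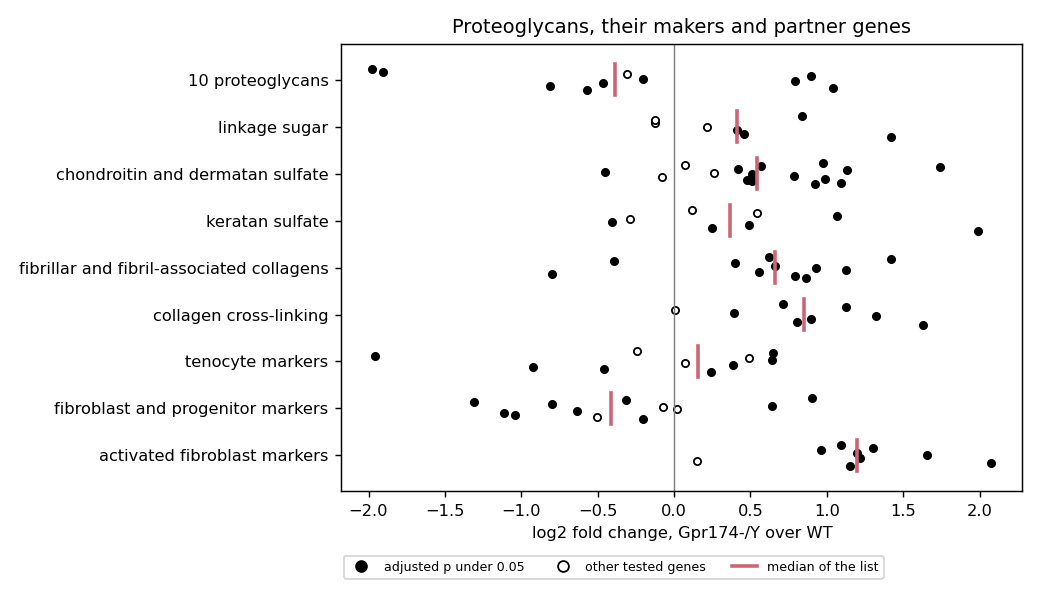
Log2 fold change of *Gpr174*-/Y over WT for the 10 proteoglycans and for the tested genes of partner groups. These are the linkage sugar, chondroitin and dermatan sulfate, keratan sulfate, collagen and cross-linking genes and 3 groups of cell markers. Points are filled for an adjusted p under 0.05, and a bar marks the median. The median is -0.39 for the 10 proteoglycans, 0.54 for the makers of chondroitin and dermatan sulfate, 0.66 for the collagens and 1.2 for the activated fibroblast markers.

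Markers of the cells that could supply these transcripts also moved with genotype, and their part in the results was not tested. Behind each marker count from here on stand 27.0% of all tested genes called higher and 27.6% called lower with TMM. With total counts, 7303 genes were called higher and 2010 lower of 14395 tested. Of 9 activated fibroblast markers 8 rose and 0 fell (median 1.2), including *Tnc* (2.08) and *Lrrc15* (1.66), and their summed level was 3499 to 7262 CPM in WT and 11898 to 12002 CPM in *Gpr174*-/Y. Of 12 markers of fibro-adipogenic progenitors and fibroblasts, 2 rose, among them *Fbn1* (0.90), and 7 fell, including *Clec3b* (-1.31), *Pi16* (-1.12) and *Cd34* (-1.04). The sum of the 12 was 2545 to 2577 CPM in WT and 2402 to 2440 CPM in *Gpr174*-/Y. With total counts 4 of these markers rose and 5 fell.

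Among 10 tenocyte markers 4 rose and 3 fell (median 0.16; 5 and 2 with total counts, and 4 calls in all without *Gpr174*-/Y replicate 2), and their sum was 1216 to 1854 CPM in WT and 1990 to 2000 CPM in *Gpr174*-/Y. *Tnmd*, encoding tenomodulin, was at 40.2, 39.5 and 40.6 CPM in WT and 19.9, 21.4 and 22.3 CPM in *Gpr174*-/Y (log2 fold change -0.92), and *Cilp2* had -1.96. *Wif1* (0.65) and *Egr2* (0.64) were among the 4 that rose. Of 7 tested cartilage and bone markers 2 rose (*Runx2* 1.25, *Sox9* 1.18) and 2 fell (*Alpl* -2.08, *Col2a1* -0.80), with sums of 33.4 to 38.1 CPM in WT and 55.2 to 57.5 CPM in *Gpr174*-/Y.

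Of other markers, all 12 of mature muscle fibres fell (sum 126915 to 181354 CPM in WT, 55685 to 62760 in *Gpr174*-/Y) and 5 of 8 of regenerating fibres rose (6766 to 8942 and 7945 to 10010 CPM). All 8 macrophage markers rose (1420 to 2176 and 3303 to 3347 CPM) and all 8 endothelial markers fell (990 to 1189 and 603 to 690 CPM). None of these markers was at 0 in every library. Of all tested genes, 27.0% were called higher and 27.6% lower.

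By Pearson's r of log2 CPM over the 6 libraries, which share genotype and the position of replicate 2, the genes most like *Bgn* were *St6gal1*, *Itga5* and *Lima1* (r between 0.9996 and 0.9998), and those most like *Chad* were *Rnf125*, *Ntng2* and *Arrdc2* (r between 0.998 and 0.999). As many as 2303 genes had an r above 0.95 with *Bgn* and 805 with *Chad*, so these names are the top of long lists.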

How the data were processed

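RNA of 3 WT and 3 *Gpr174*-/Y muscle samples was sequenced. The labels name an Illumina library kit and the methods a BGISEQ platform. The submitters' processing notes list HISAT2 2.0.4, Bowtie2 2.2.5, RSEM 1.2.12 and GRCm39, with no role given. For 58843 RefSeq transcripts the authors deposited expected counts, that is estimated counts of reads that need not be whole, not normalized. The authors also deposited FPKM, scaled for length and depth, and TPM, scaled to the same total in every library. The authors' group means were not used.

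Groups came from the sample labels. Expected counts were summed per Entrez gene and rounded. All 14395 genes kept by edgeR's filter were fitted (edgeR 4.0.16, TMM, robust quasi-likelihood F-test, R 4.3.3), with Benjamini-Hochberg adjustment over all of them. A call is an adjusted p under 0.05, and the study's second threshold is an absolute log2 fold change above 1. The scripts were tested on simulated data. SE is the log2 fold change divided by the square root of F. *Gpr174* was checked by its counts alone. The floor of 3 counts covers counting error only. The labels do not say that the replicates are separate mice, so p-values and SE measure the spread between these samples, which may be technical.

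The members and gene lists were chosen with earlier results of these data known. Named genes were the 10 members, the other family genes, the 3 collagens of the ratio, up to 4 called genes per list with the largest absolute change and at least 1 CPM, and the 3 genes most correlated with *Bgn* and *Chad*. *Tpst1*, *Tpst2*, *Acsf2*, *Cenpp*, *Gm15851* and *Ckm* were named after their values were seen. Promoters were read from the RefSeq table of GRCm38.p6, which differs from the labelled build, so no other coordinates are given, and 8 of the 10 members were matched. Shared exon bases were counted in the GENCODE annotation of GRCm38. Protein features were not analysed here, and a further marker group is not reported here.

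Alternatives were DESeq2 1.42.0 (Wald test, and its size factors in edgeR), total counts, a filter of at least 10 counts in each library or none, a replicate block, limma 3.58.1 on log2 FPKM with a pseudocount of 1 or 0.1 (FPKM of at least 1 in 3 libraries), leaving out each library, and replicates 1 and 3 only. Same-numbered samples differ in genotype and so are different mice.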

Additional observations from a re-analysis of the deposited data

How the results depend on the processing

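The number of proteoglycans called was 9 and the split 3 higher and 6 lower. As each library was left out, 6 to 9 were called (1 to 3 higher, 5 to 6 lower), and the higher count was 1 without WT replicate 2 and without *Gpr174*-/Y replicate 3. The number also past a log2 fold change of 1 was 2 to 5, with 5 without WT replicate 3, and it was 5 with total counts, 5 with limma on log2(FPKM + 1) and 5 on log2(FPKM + 0.1). With replicates 1 and 3 of each group only, the called members were 0, the higher and lower ones 0, those past both thresholds 0 and all genes 0 by edgeR's quasi-likelihood test. That fit has fewer samples, and 5026 genes had an unadjusted p under 0.05 in it. Among all genes, 5459 to 9166 were called as each library was left out.

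Directions turned for *Prelp* (0.075 with total counts, 0.070 and 0.073 with limma at pseudocounts of 1 and 0.1), for *Omd* (0.020 and 0.029 in the same limma fits) and for *Ecm2* (0.261 with total counts, 0.00 without a filter, 0.252 and 0.266 with the limma fits, and from -0.042 to 0.058 as each library was left out, above 0 without WT replicate 3 and, at 0.027, without *Gpr174*-/Y replicate 3). The cause was not tested. Same-numbered samples did not deviate together (correlations 0.02, -0.03 and -0.01, with 1 of 3 WT samples closest to its own number). No pairing by number was thus seen, but 3 samples per group are too few to exclude it. With the replicate block 8 members were called, *Prelp* being lost (adjusted p = 0.0520), and 6809 genes in all. *Dcn*, *Bgn*, *Lum*, *Fmod*, *Kera* and *Chad* were called in 14 of 15 alternatives, *Ogn* in 12, *Aspn* in 10 and *Prelp* in 7. *Epyc*, *Optc* and *Nyx* had too few counts to be tested, and *Omd* had at most 49 counts in a library.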
